A study of Mus musculus with 6 samples.

Results

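The genes described here are the cytosolic ribosomal protein genes of the mouse, taken as every row of the count table whose symbol is Rpl or Rps followed by a number, together with Rplp0, Rplp1, Rplp2 and Rpsa. Rows named as pseudogenes (-ps) and the Rps6k kinases were left out. The rule found 93 of 23016 rows, 55 with an Rpl name (large subunit) and 38 with an Rps name (small subunit). GENCODE calls 7 of them pseudogenes (Rpl32l, Rpl37rt, Rpl6l, Rps12l1, Rps3a2, Rps3a3 and Rps4l), and a pair of rows, Rps19bp1 and Rpl7l1, match by name although their products are not structural parts of the ribosome. The cells came from wild-type mice called young or aged in the labels, with no age in weeks or months. The 6 libraries were 1 each of marrow of untreated young and of untreated aged mice, marrow of young and of aged mice taken 24 h after a stroke model in which the middle cerebral artery was occluded, and blood of untreated young and of untreated aged mice. Marrow cells had been sorted to enrich Gr1+ and c-kit+ cells, and blood cells were sorted CD11b+ Ly6G- and CD11b+ Ly6G+ cells, so shares of cell types are not those of the tissues. Untreated groups are called steady in the figures. The labels do not say how many mice stand behind a library.

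Ribosomal proteins coat and stabilise the ribosomal RNA of the small and large subunits, and a growing cell makes them in near-equal amounts. Their mRNAs are among the most abundant of dividing cells and typically begin with a pyrimidine tract through which the mTOR pathway and Larp1 control their translation. Neutrophils leave the cell cycle in the marrow, fill specific granules and then circulate with few ribosomes, whereas stem cells and early progenitors build ribosomes for growth.

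The start sites of the genes whose levels moved apart are shown first, from RefSeq on build GRCm38.p6, as 70 bases that run from 50 before the annotated start to 20 after it. Capitals mark the longest run of C or T that touches the 5 bases on either side of the start. Rpl12 and Rpl10a are shown because they were among the largest falls with neutrophil maturation. Rps9, Rps27 and Rpl37 are shown because they kept more of their level than most of the other genes from dividing pre-neutrophils to immature neutrophils. Rpl3l is shown because its row rose. All were chosen after their values were seen.
Rpl12: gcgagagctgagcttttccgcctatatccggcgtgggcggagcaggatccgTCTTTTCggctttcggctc
Rpl10a: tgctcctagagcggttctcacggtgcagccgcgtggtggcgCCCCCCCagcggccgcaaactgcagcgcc
Rps9: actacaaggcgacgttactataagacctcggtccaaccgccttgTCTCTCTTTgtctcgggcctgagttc
Rps27: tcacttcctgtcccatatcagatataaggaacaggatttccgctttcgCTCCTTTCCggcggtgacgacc
Rpl37: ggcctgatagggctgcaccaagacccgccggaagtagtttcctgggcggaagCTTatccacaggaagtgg
Rpl3l: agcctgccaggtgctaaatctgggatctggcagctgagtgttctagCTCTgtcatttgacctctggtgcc
These windows lie at chr2:32961662-32961731 (Rpl12, plus strand), chr17:28328421-28328490 (Rpl10a, plus), chr7:3703991-3704060 (Rps9, plus), chr3:90213629-90213698 (Rps27, minus), chr15:5116563-5116632 (Rpl37, plus) and chr17:24727776-24727845 (Rpl3l, plus). The marked run was 9 bases long in Rps9 and in Rps27, 7 in Rpl12 and in Rpl10a, 4 in Rpl3l and 3 in Rpl37. With 6 genes chosen after their values were seen, no relation between run length and level is read from these windows. RefSeq promoters were matched for 68 of the 93 genes. A run of at least 8 pyrimidines stood at the start of 22 of them (32.4%), against 9.72% of the 12663 promoters of all matched rows, and a C at the annotated start followed by 4 pyrimidines stood in 20.6% against 2.42%. The letters CCGGAAG, on either strand of the 300 bases, were found in 36.8% of the ribosomal protein promoters and in 16.1% of all, and CTCTTTCC in 13.2% and 3.12%. These matches describe letters at annotated starts only.

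Many of these genes have processed copies elsewhere in the genome, and a short read from the 3′ end can fit several of them. A gene was marked copy-rich where at least 20% of the 50-base words in the last 400 bases of its transcripts also occur in transcripts of other genes. By this mark 71 genes were copy-rich and 22 low-copy. Low-copy here means a mostly unshared 3′ end of the annotated transcripts and not a gene without copies. Rpl27a and Rpl12 shared 0% of their words, yet 2 rows carry the name of Rpl27a with -ps and 1 row that of Rpl12. Nearest to the threshold, Rpl37a shared 19.7% and Rpl34 22.8% of its words. No source used here states how reads with several fits were treated. Rpl24 and Rps10 show what this can do to a row. In classical monocytes, Rpl24 stood at 0 to 0.23 CPM (UMIs of a gene scaled to a common total per class and library) in all 6 libraries, while Gm9385, a row that shares 254 of its words, stood at 35.5 to 96.5. Rps10 stood at 0.8 to 3.2 and Rps10-ps2 at 27.9 to 344 CPM. A level near 0 in these rows thus need not be a level near 0 of the transcript. Rpl10l had no UMI in any class tested.

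Libraries held 2236 to 8213 barcodes and 10208699 to 72743805 UMIs, and 5 to 21 barcodes were shared by any pair of libraries. Ribosomal protein genes took 20.4% of all UMIs. Cells were grouped without these genes and named from marker genes, and each class name below stands for cells that carried such markers and no other evidence of identity. The named classes held 72.1% and 74.8% of the kept cells of the untreated marrow, 49.3% and 59.5% of the stroke marrow and 91.3% and 92.2% of the blood. The rows Gm42418, Gm26917 and AY036118, which take up ribosomal RNA reads, held 0.535% and 0.487% of UMIs in untreated marrow, 2.05% and 1.88% in stroke marrow and 4.17% and 3.06% in blood. The libraries of untreated marrow therefore stood apart from the rest in this measure, and they also stood apart in single ribosomal protein genes across cell classes, as given further on. Its part in the comparisons of stroke with untreated marrow was not tested.

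The share of a cell's UMIs in ribosomal protein genes fell step by step along the neutrophil lineage. In stem and progenitor cells it was 27.4% and 27.1% in untreated marrow (young and aged) and 35.0% and 34.2% in stroke marrow. In granulocyte-monocyte progenitors it was 26.8%, 25.7%, 29.9% and 30.2% in the same order. Precursors that carried both primary and specific granule genes had 18.9%, 18.4%, 21.1% and 17.4%, dividing pre-neutrophils 5.01%, 5.05%, 6.29% and 7.73%, and immature neutrophils 2.91%, 2.61%, 2.59% and 2.61%. In each of the 4 libraries every class was below the class before it. The mean was 6.02% in dividing pre-neutrophils against 30.9% in stem and progenitor cells, a difference of -24.9 ± 3.23 percentage points (SD, n = 4 libraries), and the share was lower by 4.43 to 5.56 times. From there to immature neutrophils it dropped again, by 1.72 to 2.96 times. Each of these steps went the same way in 4 of 4 libraries, for which an exact two-sided sign-flip permutation test gives p = 0.125, the smallest p that 4 pairs allow.

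**Figure D1:**
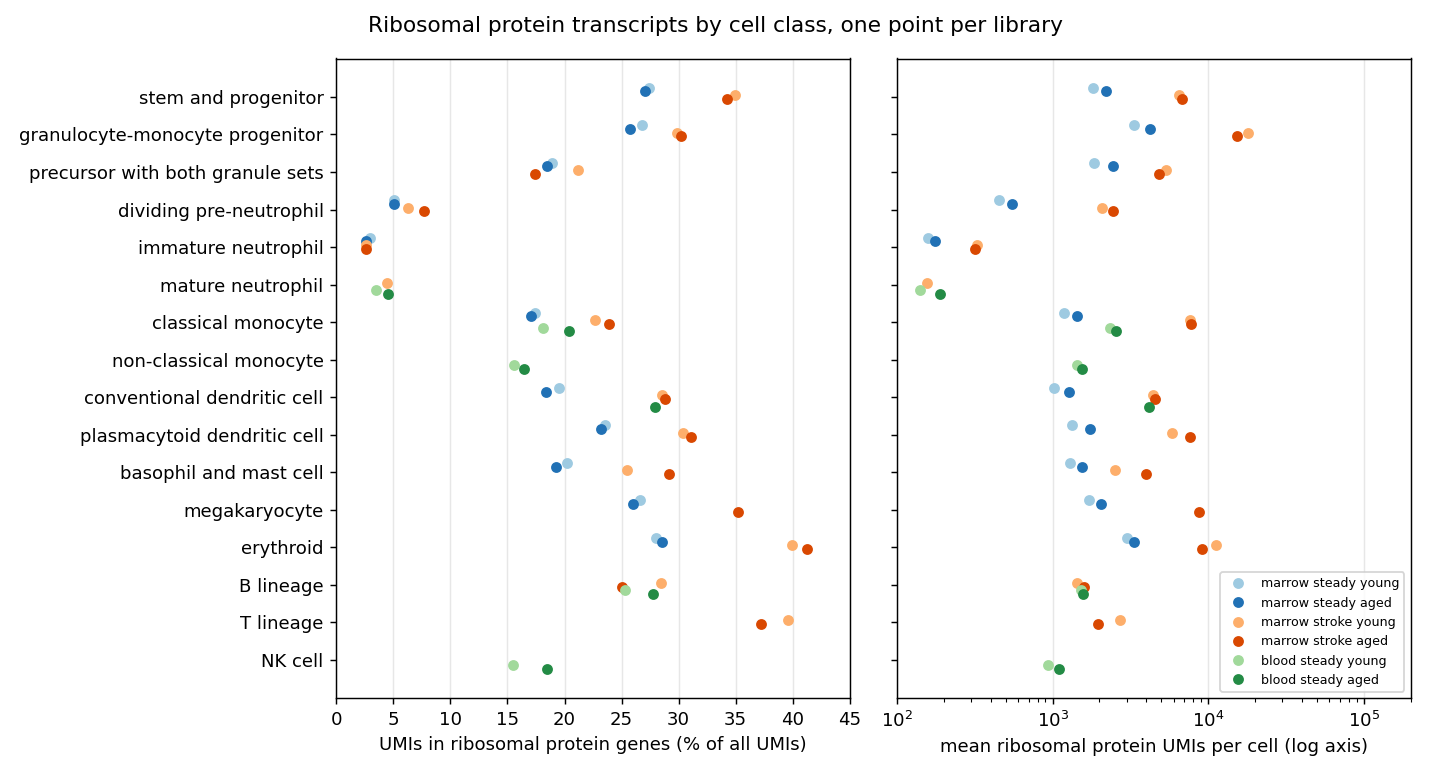
Share of UMIs in ribosomal protein genes (left, percent) and mean ribosomal protein UMIs per cell (right, log axis) in each cell class. Each point is 1 library with at least 30 cells of the class. Immature neutrophils sit between 2.59% and 2.91%, and erythroid cells reach 41.2%.

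Ribosomal protein UMIs per cell, which depend on depth, did not follow the same order. In the untreated young library the mean was 1807 in stem and progenitor cells, higher in granulocyte-monocyte progenitors (3343), 1842 in precursors, 449 in dividing pre-neutrophils and 159 in immature neutrophils. In the young stroke library the values were 6470, 17998, 5361, 2083 and 325. The granulocyte-monocyte progenitors were also the deepest of these classes, with a median of 12016 and 65450 UMIs per cell against 6033 and 16008 in stem and progenitor cells. From the progenitors on, UMIs per cell went down with each class in both libraries. A set of 6 granule transcripts (Ngp, Camp, Ltf, Lcn2, S100a8 and S100a9) took 44.9% to 45.5% of UMIs in dividing pre-neutrophils and 46.3% to 52.0% in immature neutrophils, and 0.08% to 0.39% in stem and progenitor cells. With these left out of the total, ribosomal protein genes held 9.19% to 14.0% of UMIs in dividing pre-neutrophils and 5.0% to 5.43% in immature neutrophils. The order of the classes held on that scale too.

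Mature neutrophils had a larger share of all UMIs than immature ones, but not more ribosomal protein UMIs per cell in the stroke library that held both, and the direction of the share depended on the total. In the young stroke library 58 mature neutrophils had 4.41%, against 2.59% in immature neutrophils, and in blood the share was 3.47% (young) and 4.54% (aged). Per cell they held 156 ribosomal protein UMIs in the young stroke library, against 325 in immature neutrophils. Without the granule transcripts the shares were 5.48% in mature and 5.13% in immature neutrophils of that library. On that scale blood mature neutrophils had 4.20% (young) and 5.54% (aged), and the mean of 4.87% lay below the 5.25% of immature neutrophils over the 4 marrow libraries. The aged stroke library held 24 mature neutrophils.

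Outside the neutrophil lineage the share stayed high. Classical monocytes had 17.5% and 17.1% in untreated marrow, 22.7% and 23.9% in stroke marrow and 18.1% and 20.4% in blood. Cells named erythroid, with Car1 and Car2 among their leading genes, had 28.0%, 28.6%, 39.9% and 41.2% in the 4 marrow libraries. Haemoglobin genes held only 0.0026% to 0.31% of their UMIs, so the defining product of later red cell precursors was nearly missing. T cells, found in the stroke marrow, had 39.6% and 37.2%, and natural killer cells of the blood 15.4% and 18.4%. The split between subunits was close to even in stem and progenitor cells of the young untreated library, with 13.6% of UMIs in large and 13.8% in small subunit genes. In the same class of the young stroke library the large subunit genes were ahead, with 19.0% against 16.0%. Large subunit rows such as Rpl15, Rpl27a and Rpl38 differed strongly between libraries, as given further on, and their part in this split was not tested.

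Nearly every ribosomal protein gene was lower after the first step of neutrophil maturation. Of 89 genes that passed the filter on low counts, 84 were lower in dividing pre-neutrophils than in stem and progenitor cells and 0 were higher (edgeR, adjusted p under 0.05), with a median log2 fold change of -1.39. Of all 12189 genes tested, 38.3% were lower and 32.6% higher, with a median of -0.12. At an unadjusted p under 0.05 the ribosomal protein genes counted 0 higher and 84 lower, where 8879 of the 12189 genes passed in either direction. DESeq2 called 0 ribosomal protein genes higher and 84 lower. The low-copy genes behaved likewise, with 17 of 20 lower and a median of -1.17. Since some low-copy genes also have processed copies, the part of shared reads in the fall was not tested by this. Scaling to total UMIs in place of the trimmed mean moved the median of all genes to -1.16 and that of the ribosomal protein genes to -2.41.

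Rpl12, which forms the base of the stalk that recruits elongation factors, had 4921 and 4858 CPM in stem and progenitor cells of untreated marrow and 3667 and 3515 in stroke marrow. In dividing pre-neutrophils it had 530 and 550, and 357 and 513. The groups did not overlap, and the log2 fold change was -2.09 ± 0.19 (SE, adjusted p = 5.5e-12). Fold changes here use the trimmed-mean scaling and CPM the total UMIs, so the falls in CPM are larger than the fold changes. Rplp1, a stalk protein, fell by 1.93 on the log2 scale, while its partners Rplp0 and Rplp2 fell by 1.18 and 1.14. Rpl13a, known for a role in silencing inflammatory transcripts, fell by 2.45, but from a level of only 233.8 to 239.6 CPM in untreated marrow and 90.8 to 93.7 in stroke marrow. Rpl14 (-1.98) and Rpl36a (-1.97) complete the largest falls among genes of at least 20 CPM. The most abundant member, Rps24, is mutated in some cases of Diamond-Blackfan anaemia. It went from 8852 to 10056 CPM in stem and progenitor cells to 1575 to 1880. Its log2 fold change on the trimmed-mean scaling was -1.39.

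At the second step, from dividing pre-neutrophils to immature neutrophils, 76 of 89 genes were lower and 1 was higher, with a median of -0.94 against 0.05 for all genes, of which 24.8% were lower and 25.4% higher. The largest falls were those of Rpsa (-1.80), a small subunit protein also known as the laminin receptor, Rps2 (-1.67), Rpl10a (-1.67), Rpl36a (-1.6) and Rps18 (-1.52). Rpsa had 1038, 1088, 1357 and 1600 CPM in dividing pre-neutrophils (untreated young and aged, stroke young and aged) and 347, 318, 241 and 257 in immature neutrophils, with no overlap. Rpl10a went from 250 to 533 CPM down to 80.4 to 101. In the untreated libraries alone the median of the second step was -0.62 and 71 genes were lower, and in the stroke libraries alone -1.0 and 75.

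**Figure D2:**
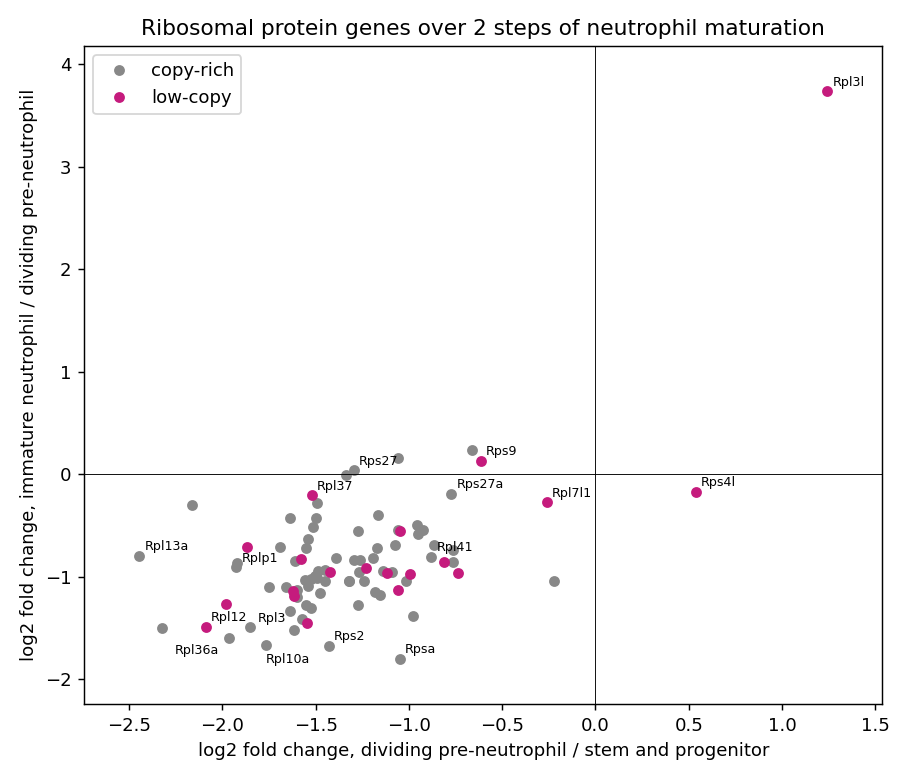
Log2 fold change of each of the 89 tested ribosomal protein genes at the first step (horizontal) and the second step (vertical) of neutrophil maturation, coloured by the mark for copies. Nearly all points lie below 0 on both axes, Rps9 and Rps27 lie near 0 on the vertical axis, and Rpl3l stands alone at the top.

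Within the group, some genes kept more of their level than others at the second step. Rps9, a small subunit protein near the mRNA entry channel, had 1224, 1277, 1826 and 1987 CPM in dividing pre-neutrophils and 1145, 1173, 1660 and 1620 in immature neutrophils. Its CPM was thus lower in immature cells in each library, while its log2 fold change, on the trimmed-mean scaling, was 0.13. That change did not pass the test (0.27 and called higher with DESeq2). In mature neutrophils Rps9 stood at 3833 in the young stroke library and at 3010 and 3257 in blood. Rps27 (log2 fold change 0.04), whose product carries a zinc finger, had 515 to 854 CPM in dividing pre-neutrophils. It had 479 to 626 in immature and 1805 to 2557 in mature neutrophils. Rps27a, a fusion of ubiquitin and a ribosomal protein, had 1365.6 to 2203, then 1055.5 to 1365.5 and then 1678 to 2085 in these classes. Rpl37 had 725 to 1243, then 611 to 687 and then 1670 to 2198. The CPM of Rps27a and Rpl37 was thus lower in immature than in dividing cells, without overlap. Their log2 fold changes (-0.19 and -0.20) did not pass the test. Rps9 and Rpl37 are low-copy, and Rps27 and Rps27a are copy-rich.

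A second fit of the same counts set each gene against the summed ribosomal protein UMIs of its own sample. The sum includes the gene itself, so genes on both sides of it follow from the scaling. The fit ranks the genes within the group and is not independent of the values above. At the first step 27 genes kept more than the sum and 27 kept less, of 89. Among all genes 63.9% were higher and 14.6% lower on this scale, the sum itself being lower. Rps9 (0.73), Rpl7l1 (1.09), Rps27l (0.61), Rpl7a (0.58) and Rpl35a (0.58) led those that kept more among genes of at least 20 CPM, and Rpl13a (-1.13), Rpl12 (-0.75), Rpl14 (-0.64), Rpl36a (-0.62) and Rplp1 (-0.58) led those that kept less. At the second step 21 kept more and 27 less, against 53.2% and 8.56% of all genes. Among genes of at least 20 CPM Rps9 led, at 1.01 ± 0.12 (SE, adjusted p = 2.4e-09), followed by Rps27 (0.89), Rpl37rt (0.88), Rps27a (0.66) and Rpl37 (0.63). Rpsa (-0.97), Rps2 (-0.85), Rpl10a (-0.83), Rpl36a (-0.78) and Rps18 (-0.70) kept least. Rps9 was thus among the genes that kept more at both steps, and Rpl36a among those that kept less at both.

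**Figure D3:**
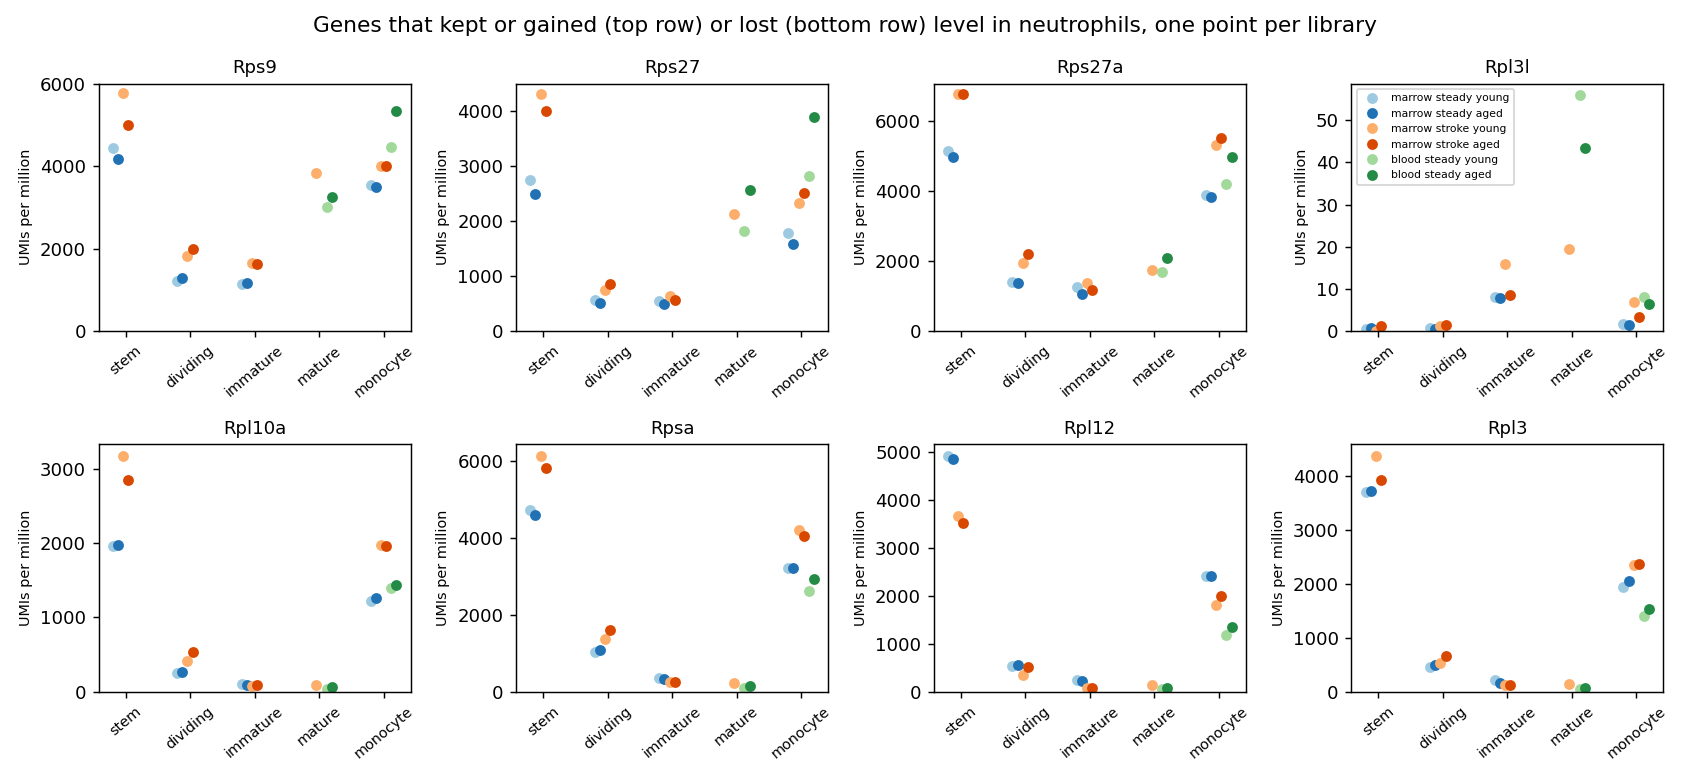
CPM of 8 genes in 5 cell classes, 1 point per library with at least 30 cells. In the top row Rps9, Rps27 and Rps27a reach 3833, 2557 and 2085 or less in mature neutrophils and Rpl3l up to 55.9, while Rpl10a, Rpsa, Rpl12 and Rpl3 in the bottom row stay at or below 229 there.

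Rpl3l was the one row called higher at the second step. Rpl3l encodes a relative of Rpl3 known from heart and skeletal muscle. It had 0.4, 0.8, 0 and 1.1 CPM in stem and progenitor cells, 8.0, 7.8, 15.9 and 8.5 in immature neutrophils, and 55.9 and 43.5 in mature neutrophils of young and aged blood, which rest on 342 and 588 UMIs. Non-classical monocytes of the blood had 64.6 and 86.1, from 29 and 468 UMIs. The log2 fold change of immature neutrophils against dividing pre-neutrophils was 3.74 (adjusted p = 9e-09), from 12 UMIs in dividing pre-neutrophils to 140 in immature neutrophils over the 4 libraries. The row shares no 50-base word with another gene. Msrb1, a methionine sulfoxide reductase gene, begins 499 bases downstream of Rpl3l on the same strand, and its level was also higher in the later classes: 57.9 to 87.7 CPM in stem and progenitor cells, 499 to 596 in dividing pre-neutrophils, 836 to 1015 in immature neutrophils and 3682 to 4772 in mature neutrophils. Classical monocytes departed from the parallel, with 778 to 1310 CPM of Msrb1, about the level of immature neutrophils, and 1.5 to 8.0 of Rpl3l. The part of reads from Msrb1 in the Rpl3l row was not tested. Rpl3 itself, the paralog of the general ribosome, went the other way, from 3713, 3732, 4375 and 3922 CPM in stem and progenitor cells to 122 to 210 in immature neutrophils and to 53.1 and 62.7 in blood.

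Among the other paralogs, Rpl22 and Rpl22l1 fell by 1.62 and 1.24 at the first step and by 1.14 and 1.04 at the second. Rps27l, a p53 target, fell by 0.74 and 0.96, while its partner Rps27 fell by 1.30 at the first step and had 0.04 at the second, which did not pass the test. Rps4x fell by 1.48 and 1.16, whereas Rps4l, a pseudogene row at 4.4 to 24.3 CPM across stem, dividing and immature cells, passed the test at neither step (0.54 and -0.17). Rpl7 fell by 1.17 and 0.72, and Rpl7l1, which acts in ribosome assembly, had -0.26 and -0.27, neither past the threshold. Rpl36a fell by 1.97 and 1.6, and Rpl36al had -0.22 at the first step (not past the threshold) and fell by 1.04 at the second. Rpl39 fell by 1.66 and 1.10, and Rpl39l had at most 2.9 CPM in these classes. Rps19bp1, which binds Rps19, fell by 0.81 and 0.85, and Rpl10 fell by 1.49 at the first step.

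Monocytes kept far more of the ribosomal protein program than neutrophils. Against stem and progenitor cells, 54 of 89 genes were lower in classical monocytes and 3 higher, with a median of -0.38; among all genes 32.9% were lower and 29.2% higher, with a median of -0.08. Rpl36a (-0.78), Rpl36 (-0.78), Rps24 (-0.73), Rpl12 (-0.73) and Rpl17 (-0.72) fell most among genes of at least 20 CPM. Rpl36al (0.76), Rps27l (0.47) and Rpl3l (2.29) rose, and Rplp0 (0.02), Rpl10 (0.03) and Rpl41 (0.11) did not pass the test. The count of lower genes was 27 with presumed doublets kept and 37 to 44 with 1 library left out, and Rps27l passed the test neither without the aged stroke library (0.44) nor with total UMIs (0.23) nor with UMIs outside these genes (0.02). Immature neutrophils set directly against classical monocytes had 86 of 89 genes lower and 1 higher, with a median of -1.90, against 38.4% lower and 32.2% higher of all genes. Rpl10a (-3.04), Rps2 (-2.96) and Rpl12 (-2.85) were furthest down.

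In blood the gap between the lineages was also wide. Mature neutrophils had 82 of 88 genes lower than classical monocytes and 1 higher, with a median of -1.99, against 38.2% and 35.8% of all 10639 genes. The fit took in every class of both libraries, with library as a block. Rpl10a had 35.3 and 56.7 CPM in neutrophils (young and aged) and 1399 and 1431 in monocytes, a log2 fold change of -4.43 (adjusted p = 3.5e-25). Rpl3 (-4.16), Rpsa (-4.03), Rpl36al (-3.92) and Rpl12 (-3.71) followed, the value of Rpl36al resting on the young library as described below. Rps9 (-0.13) and Rps27 (-0.11) did not pass the test: Rps27 had 1805 and 2557 CPM in neutrophils and 2815 and 3885 in monocytes. On total UMIs Rps9 was lower in neutrophils by the test (-0.64).

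Age moved few of these genes in marrow. In stem and progenitor cells 1 of 88 was higher in aged marrow and 0 were lower, with a median of -0.03, where 0.378% of 12177 genes were higher and 0.214% lower. At an unadjusted p under 0.05 they counted 3 higher and 8 lower, where 719 of the 12177 genes passed in either direction. In immature neutrophils it was 1 of 85 and 0, with a median of 0.01, where 0.334% and 0.322% of 8379 genes passed. There 4 ribosomal protein genes were higher and 4 lower at an unadjusted p under 0.05, where 634 of the 8379 genes passed in either direction. DESeq2 called 0 ribosomal protein genes in either class. The called gene was Rpl15 in both. In stem and progenitor cells it had 175 and 231 CPM (young and aged) in untreated marrow and 1486 and 2140 in stroke marrow, a log2 fold change of 0.45 (adjusted p = 0.014). In immature neutrophils it had 10.8 and 17.7, and 61.9 and 93.0 (0.68, adjusted p = 0.013). Rpl15 is copy-rich, its level differed more between untreated and stroke libraries than between ages, and it did not pass the test under 7 of the alternatives in stem and progenitor cells and 8 in immature neutrophils. With 1 library per age and state, age cannot be told apart from the library.

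In blood the aged library had the higher share in each class compared, with no test since there was 1 library per age. Mature neutrophils had 4.54% against 3.47%, classical monocytes 20.4% against 18.1%, non-classical monocytes 16.5% against 15.6%, natural killer cells 18.4% against 15.4% and B cells 27.7% against 25.3%. In mature neutrophils 80 of the 86 genes with at least 50 UMIs over both libraries had a higher level in the aged library. The share with a higher level was 51.5% over 9029 genes. The median log2 ratio of the 86 was 0.42, against 0.01 over the 9029. The median was 0.16 in classical monocytes, 0.08 in non-classical monocytes, 0.25 in natural killer cells and 0.13 in B cells. Rpl36al went the other way: in classical monocytes it had 280 CPM in young and 26.2 in aged blood, a log2 ratio of -3.42 (95% interval -3.69 to -3.15, exact binomial, counting error only). It was at 220.6 and 15.6 in non-classical monocytes and at 19.3 to 52.2 in monocytes of the 4 marrow libraries, so the young blood library stood alone. The same library had 344 CPM of Rps10-ps2 in classical monocytes, against 27.9 to 73.7 in the other 5.

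Stem and progenitor cells of the stroke marrow had higher levels of most ribosomal protein genes than those of untreated marrow, 77 of 88 higher and 3 lower, with a median of 0.76, where 15.3% of all genes were higher and 12.5% lower (median -0.05). On total UMIs 56 were higher and 9 lower, and the median of all genes moved to -0.47. The genes that rose most were Rpl6l (4.74), Rpl15 (3.56), Rpl27a (3.07), Rps3a2 (2.84) and Rpl38 (2.41), and Rpl13a (-0.95), Rpl4 (-0.41) and Rps14 (-0.15) fell. In immature neutrophils 40 of 85 were higher and 15 lower with a median of 0.23, where 13.5% of all genes were higher and 11.5% lower. On total UMIs the split turned to 20 higher and 34 lower with a median of -0.11, so the direction of the group in immature neutrophils depends on the scaling. The shares of all genes called on total UMIs are not given for either class. These counts therefore do not separate a shift of this group from a shift of all genes. Among genes of at least 20 CPM in immature neutrophils, Rpl15 (2.79), Rpl27a (2.61), Rpl35 (1.80), Rpl38 (1.79) and Rps6 (1.71) rose most. Rpl12 (-1.27), Rpl4 (-0.91), Rpl5 (-0.81), Rps15 (-0.63) and Rpl36a (-0.60) fell most. Below that level Rpl6l (3.95) rose and Rpl13a (-1.90) fell further.

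Of the 5 genes with the largest rise in stem and progenitor cells after stroke, Rpl6l, Rpl15, Rpl27a and Rpl38 were also far higher in untreated blood than in untreated marrow, and Rps3a2 less so (log2 ratio 0.64 in classical monocytes). In classical monocytes, present in all 6 libraries, Rpl15 had 77.8 and 104 CPM in untreated marrow, 890 and 1390 in stroke marrow, and 1274 and 1233 in untreated blood. Rpl27a, a low-copy gene, had 211 and 292, 1453 and 2046, and 2711 and 2525. Rpl38 had 865 and 983, 3802 and 4280, and 2814 and 3503. The untreated marrow was the lowest in each case. Blood of untreated mice lay above the mean of stroke marrow for Rpl15 (1253 against 1140) and Rpl27a (2618 against 1750), and below both stroke marrow libraries for Rpl38. Of the 81 genes with a mean of at least 50 CPM in these cells, 7 (8.64%) were more than 1.5 higher on the log2 scale in both stroke marrow and blood than in untreated marrow, namely Rpl15, Rpl27, Rpl27a, Rpl35, Rpl38, Rpl6l and Rps6, and 0 were as far lower in both. Among all 2996 genes at that level, 42 (1.40%) were as far higher and 3 as far lower. The group as a whole was not as far higher. Its median log2 ratio to untreated marrow was 0.49 in stroke marrow and 0.11 in blood, above the -0.25 and -0.28 over all genes. Among the 17 low-copy genes the medians were 0.29 and -0.35, the latter below that of all genes. The deposited barcodes also differed in filtering. Their mitochondrial share reached 4.91% and 4.99% in untreated marrow (young and aged) and 9.90% and 9.95% in stroke marrow. Their lowest UMI counts were 599 and 862, against 212 and 224. With 1 library per age and state, stroke cannot be told apart from the preparation and filtering of the libraries, while the comparisons of cell classes were made within libraries.

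**Figure D4:**
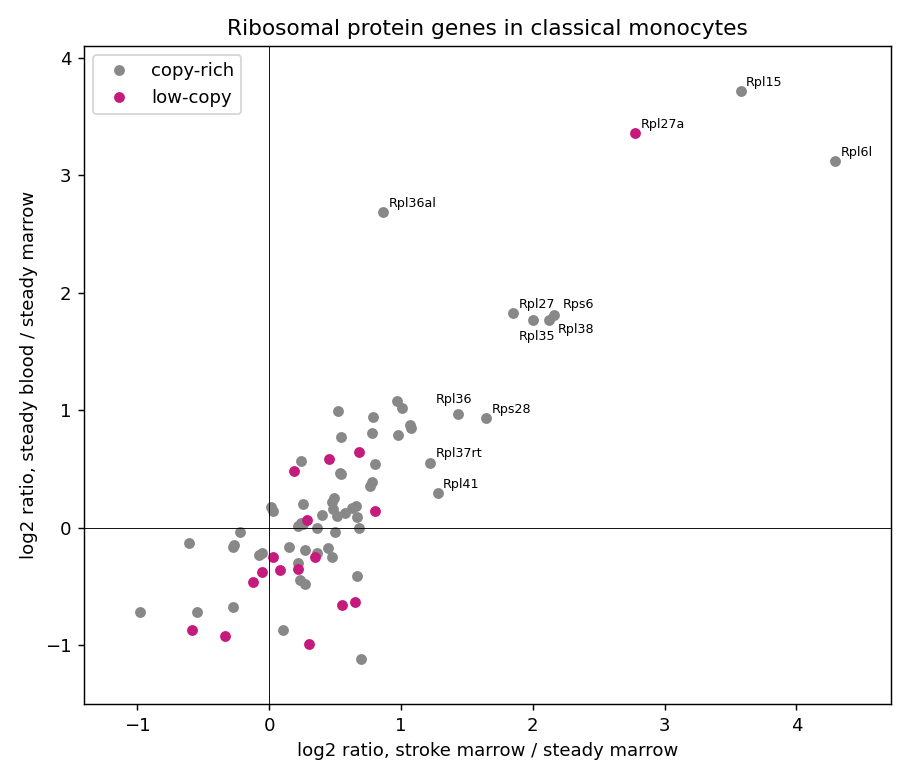
Log2 ratio of each of the 81 ribosomal protein genes with a mean of at least 50 CPM in classical monocytes, stroke marrow over untreated marrow (horizontal) and untreated blood over untreated marrow (vertical), for means of 2 libraries each with 5 CPM added. Rpl15, Rpl27a and Rpl38 lie far to the upper right, so both other pairs of libraries were above untreated marrow.

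The other genes of ribosome production and use are read against all genes tested, of which 38.3% were lower and 32.6% higher at the first step and 24.8% and 25.4% at the second. Of 38 ribosome biogenesis genes, 36 were lower and 0 higher at the first step (median -2.15), Gnl3 (-3.99) and Nop16 (-3.56) furthest, and 23 were lower and 1 higher at the second (median -0.80). Of 38 translation factors, 26 were lower and 3 higher at the first step, with Eef1g at -3.16 and Eif5 at 0.69, and 29 lower and 2 higher at the second. Mitochondrial ribosomal proteins, which serve a separate ribosome, had 42 of 78 lower and 13 higher at the first step (median -0.42) and 58 lower and 2 higher at the second (median -0.84). In classical monocytes against stem and progenitor cells 30 of them were higher and 9 lower, where 29.2% of all genes were higher and 32.9% lower. Among 22 genes that control ribosomal protein translation and transcription, 7 rose and 9 fell at the first step, shares near those of all genes: Myc, which drives ribosome production, fell by 5.16, and Mxd1, its antagonist, rose by 4.33. Of 10 genes of ribosome turnover and stalling, 3 were lower and 1 higher at the first step and 5 lower and 1 higher at the second, counts too small to set against the shares of all genes. Rack1, a small subunit component without an Rps name, fell by 1.75 and 1.15. These lists were compared with all genes by their counts alone.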

How the data were processed

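Single cells of 6 libraries were profiled with the 10x Genomics Chromium 3′ v3.1 kit, per the labels. The authors deposited UMI counts, not normalized, for each gene and cell, and the submitters' processing notes name Cell Ranger 3.0.2, STAR 2.5.3a, UMI-tools, Subread and featureCounts 1.6.4 with GRCm38 (mm10), without saying which step each did. Genes, lists and members were chosen with earlier results of these data known. Cells had at least 500 UMIs, 200 genes and at most 10% mitochondrial UMIs, and were scored for doublets with a simulation-based score and clustered (Leiden) within untreated marrow, stroke marrow and blood, with ribosomal protein genes, rows that share words with them and mitochondrial genes among the 933 rows left out. Clusters were named from fixed markers, by a scoring rule set after the cluster tables were seen, and clusters that failed it were left unnamed. Simulated doublets scored above the threshold in 4.39% to 44.5% of cases, so doublets may remain.

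Counts were summed per library and class (at least 30 cells), and the quasi-likelihood test of edgeR 4.0.16 in R 4.3.3 (TMM scaling, filterByExpr, Benjamini-Hochberg adjustment over all genes) was fitted with library as a block for class comparisons and with age and state for the rest. Libraries are 1 per group. In class comparisons the residual is how far class differences vary between libraries. For age it is how far the age difference varies between states, and for stroke how far the stroke difference varies between ages. Neither is a replicate error, and edgeR moderates the spread across genes, so these p-values do not measure the spread between replicate libraries. Levels are CPM on total UMIs without TMM scaling, so their ratios differ from the log2 fold changes, which use it. Intervals cover counting error only. On counts simulated for the comparison of immature with dividing cells over 12189 genes, 21% of 2-fold and 91% of 4-fold changes were recovered. The simulation gave every gene the same fixed dispersion and all classes a shared mean profile, so these shares need not hold for the data. Named genes were the 5 largest rises and falls past the threshold with at least 20 CPM, the 6 most abundant genes and fixed paralog pairs; of other lists, the largest changes. Alternatives covered scaling, test, filter, clustering, doublets, mitochondrial limit, each library and the block (DESeq2 1.42.0); those joining the post-mitotic cluster, splitting the marrow libraries or leaving out granule genes, and the printed sequences, were chosen after seeing the data. An alternative that widened the set of rows counted in the share is not reported here. Class comparisons within a library share that library, which is the pairing; the labels give each group replicate number 1 only.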

Additional observations from a re-analysis of the deposited data

How the results depend on the processing

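The fall of ribosomal protein genes along the neutrophil lineage kept its direction under every alternative run. Without the replicate block (the library term), the first maturation step called 69 genes lower in place of 84, the second 48 in place of 76, classical monocytes against stem and progenitor cells 10 in place of 54, and genes that departed from the sum were 14 and 5 at the first step and 7 and 11 at the second. Genes called higher at the first step were 2 at a Leiden resolution of 0.5 and with at most 5% mitochondrial UMIs, 1 with doublets kept and 1 in the stroke libraries alone. At the second step 2 were higher with DESeq2 and 2 in the untreated libraries alone. In monocytes 27 were lower with doublets kept, 32 in the stroke libraries alone and 84 with UMIs outside the ribosomal protein genes as the total, which also left 1 higher. Immature neutrophils against monocytes had 2 higher without the filter. Genes that kept less than the sum at the first step were 17 at a Leiden resolution of 0.5, without the filter and in the stroke libraries alone.

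The age call was lost (0 higher) in stem and progenitor cells at Leiden resolution 0.5, with doublets kept, with ribosomal protein genes in the clustering, with DESeq2 size factors, both other totals and the DESeq2 test, and 1 gene was lower with the mitochondrial limit and without the filter. In immature neutrophils it was lost (0 higher) under those same settings other than doublets kept, and with the mitochondrial limit and the joined post-mitotic cluster. In stroke against untreated stem and progenitor cells 9 and 7 were lower with total UMIs and with UMIs outside these genes. In immature neutrophils both gave 20 higher and 34 lower, DESeq2 24 and 6, and 9, 7, 9 and 32 were lower at Leiden resolution 0.5, with doublets kept, with these genes in the clustering and with the post-mitotic cluster joined.

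Copy-rich genes left out, the mean share was 6.49% in stem and progenitor cells, 5.97% in granulocyte-monocyte progenitors, 3.96% in precursors, 1.28% in dividing and 0.620% in immature cells. It was 4.24% and 3.85% in marrow and blood classical monocytes and 1.04% in mature neutrophils. The order was the same but for blood classical monocytes. They lay below precursors here and above them with all genes (19.2% against 19.0%). Granule genes left out of the total gave 23.6%, 11% and 5.25% in precursors, dividing and immature cells and 4.87% in mature cells. Precursors had 14.9% with doublets kept, 11.6% with these genes in the clustering and 13.9% as a median over cells, which gave 4.08% in dividing and 2.25% in immature cells. Immature cells had 2.92% with the post-mitotic cluster joined.

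Leaving out each library in turn gave 84 to 84 genes lower and 0 to 1 higher at the first step, 66 to 75 and 1 to 1 at the second, 37 to 44 and 2 to 3 in monocytes, 83 to 85 and 1 to 1 in immature neutrophils against monocytes. Genes that kept more and less than the sum were 21 to 23 and 15 to 21 at the first step and 15 to 20 and 20 to 24 at the second, the 15 without the aged and 17 without the young untreated library. It could not be done for age, stroke or blood, where no residual degree of freedom or only 1 library was left. At Leiden resolution 0.5 no blood cluster was named a classical monocyte. Depth limits rows under about 20 CPM, such as Rpl3l and Rpl36al.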
